A study of Arabidopsis thaliana with 7 samples.

Results

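The genes described here build and loosen the plant cell wall. They were 56 genes of the expansin, XTH, CSL and TBL families, taken from 13513 probe sets, for 13350 gene symbols, to which the array annotation assigns 1 gene. A gene was a member when its symbol began with the name of 1 of these families, of the CESA cellulose synthases or of the related CSL families, followed by a number. Each member had 1 probe set, so no choice between probe sets was needed. There were 10 alpha-expansins (EXPA), 8 beta-expansins and expansin-like proteins (EXPB, EXLA and EXLB), 9 XTH genes, 7 CSL genes and 22 TBL genes. CESA genes were among the names searched, and 0 of the probe sets with 1 gene carried such a name, so the cellulose synthases themselves were not analysed here.

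The wall of a growing plant cell is a mesh of cellulose fibres held in hemicelluloses and pectin. Expansins loosen that mesh without cutting it, and XTH enzymes cut xyloglucan, the main hemicellulose of the primary wall in Arabidopsis, and can join the ends again. CSL proteins are relatives of cellulose synthase that make the backbones of hemicelluloses, and many TBL proteins add acetyl groups to xylan, mannan or xyloglucan.

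Transcript levels came from 7 Affymetrix ATH1 arrays of Arabidopsis thaliana seedlings. There were 2 arrays of sta1, a mutant in a nuclear protein that the series title links to splicing, 1 array of C24-LUC wild type and 4 arrays of Col-LUC wild type. All 3 groups were 2-week-old seedlings raised on MS agar (3% sucrose, 22 °C, 16 h light and 8 h dark), and their titles say no treatment. The labels do not spell out LUC, do not name the strain that carries sta1 and do not say whether seedlings were pooled or came from separate cultures. The p-values therefore measure only the spread between these arrays, which may be technical. For the sta1 samples, the growth description speaks of ice1, a different mutant, and of a treatment. The titles were followed, and whether the sta1 seedlings were treated was not tested. The level of STA1 was not analysed here, so the sta1 label was not checked against it.

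Values are MAS5 signals, a brightness per probe set that the authors scaled to a target of 500 on every array. Median signals lay between 207.8 and 215.7, and 63.9% to 65.3% of probe sets reached a signal of 100 on each array. Both sta1 arrays came from the same chip lot as Col-LUC 1, and sta1 1 and Col-LUC 1 shared a hybridisation session. Col-LUC 2 and Col-LUC 3 came from other lots and were hybridised in a different calendar year from sta1. C24-LUC was of the same year as sta1 but of another lot, and for Col-LUC 4 lot, session and year are unknown. In the comparison with all wild-type arrays, genotype is thus partly mixed with lot and year. Col-LUC 1 was the wild-type array nearest to the sta1 mean for 16 of the 42 tested members (38.1%), against 38.2% of all tested probe sets. Because of this, differences are also given between sta1 1 and Col-LUC 1 alone for the members with larger differences. Between those arrays, 10 of the 42 tested members had the opposite sign from the comparison of sta1 with all wild-type arrays (CSLC04, CSLC12, CSLD2, EXPA4, EXPA7, EXPA9, TBL18, XTH19, XTH20 and XTH33). Of the shoot markers, 4 of 11 had a probe set with 1 gene, and their summed signal lay between 34676.4 and 37737.3 on the sta1 arrays, against 51133.7 to 63444.1 on the wild-type arrays. All 4 were lower in sta1, by unequal amounts. The log2 differences, sta1 minus wild type, were -2.09 for PSAN, -0.68 for LHCB4.1, -0.55 for PSAE-1 and -0.21 for RCA. Of 12 root markers only PYK10 had a probe set with 1 gene, and its signal overlapped between the groups. Their part in the results below was not tested, and in whole seedlings fewer cells of a type and less RNA per cell cannot be told apart.

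The first question was which of these wall genes differ in level in the mutant. Of the 56 members, 42 reached a signal of 100 on at least 2 arrays and were tested. Of these 42, 0 passed an adjusted p of 0.05 in limma, fitted and adjusted over all 15673 tested probe sets, of which 1.31% passed (0.542% higher and 0.766% lower in sta1). At an unadjusted p under 0.05 there were 11 members (26.2%), 3 higher and 8 lower in sta1, against 23.5% of all tested probe sets (11.6% higher and 11.9% lower). All differences below are log2 values of sta1 minus wild type, and none of those given for a member passed in this fit.

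Other summaries over the members are given as descriptions, with no test. The median size of the difference, regardless of sign, was 0.49 for the members and 0.28 for all tested probe sets. The median SD among the 4 Col-LUC arrays was also larger for the members, at 0.34, against 0.24 on the log2 scale. Both sta1 arrays lay below all 5 wild-type arrays in 12 of 42 members (28.6%), against 15.7% of all tested probe sets. They lay above all 5 in 4 members (9.52%), against 16.7%. The difference was positive in 19 members and negative in 23, against 50.8% positive and 49.2% negative over all tested probe sets. It reached a 2-fold higher level in 1 member, TBL37, and a 2-fold lower level in 3, EXPA8, EXPB3 and TBL36, against 2.87% and 3.36% of all. The median difference was -0.16 over the members and 0.0083 over all tested probe sets.

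**Figure D1:**
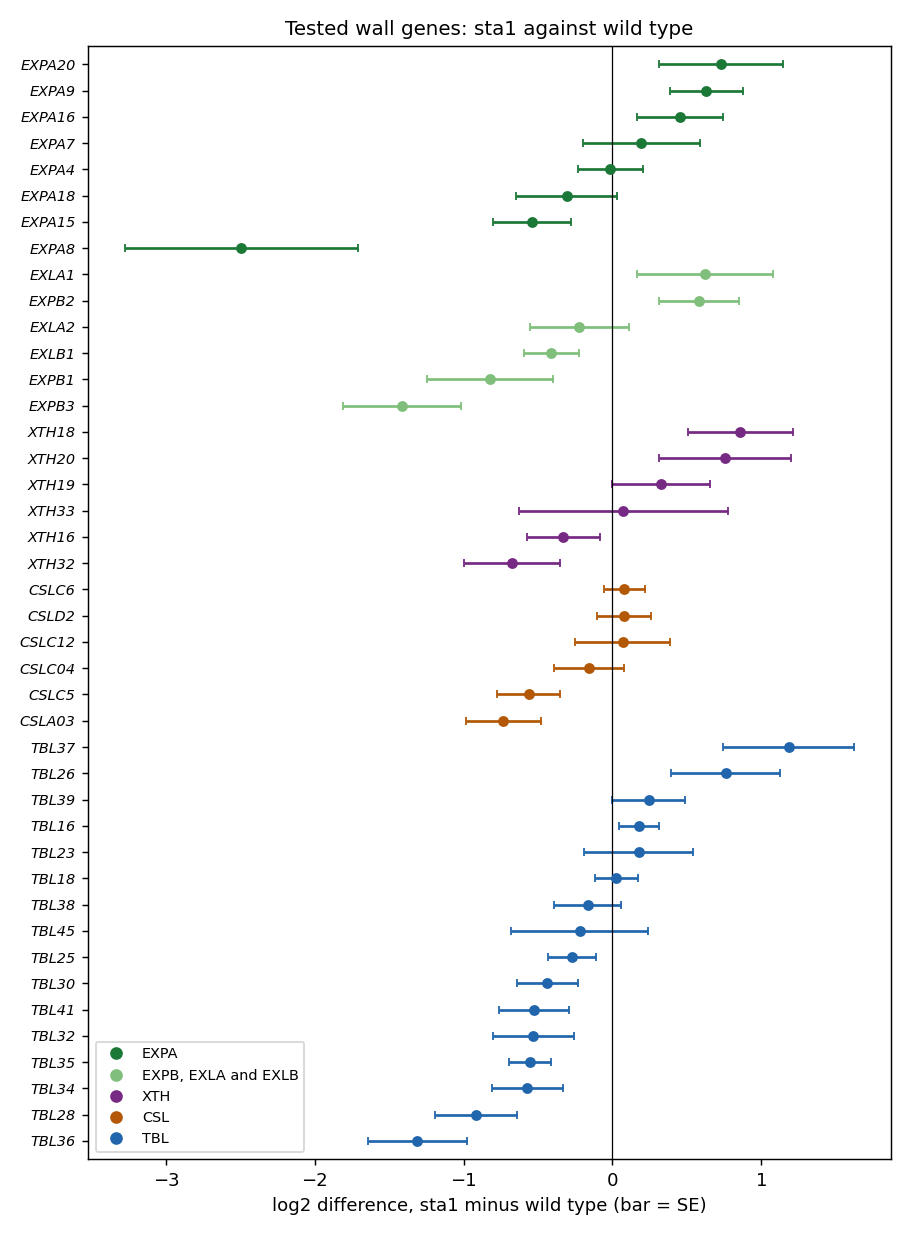
Each point is the log2 difference of 1 tested wall gene, sta1 minus wild type, with its standard error as a bar, grouped by family. EXPA8 lies farthest to the left at -2.50 and TBL37 farthest to the right at 1.18.

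Among the alpha-expansins, EXPA8 (AT2G40610) had the largest difference of all members. Its signal was 281.1 in sta1 1 and 269.8 in sta1 2, against 381.6, 3612.0, 1691.7 and 3418.3 in Col-LUC 1 to 4 and 1132.3 in C24-LUC. The sta1 arrays were the lowest, but Col-LUC 1 lay much nearer to them than to the other Col-LUC arrays. The difference was -2.50 ± 0.78 (SE, 2 sta1 and 5 wild-type arrays), a ratio of 5.64, with an adjusted p of 0.119. Between sta1 1 and Col-LUC 1 it was -0.44. Without Col-LUC 1 it was -3.0 with an adjusted p of 0.0183, so the call depends on that array. Col-LUC 1 is the only wild-type array known to share the chip lot of sta1. In the fit without it 8.81% of all tested probe sets passed, against 1.31% with all arrays. EXPA8 also had the largest spread of any member among the Col-LUC arrays, with a range of 3.24 on the log2 scale.

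EXPA9, EXPA20 and EXPA16 had the largest positive differences in that family. EXPA9 (AT5G02260) had 698.1 and 896.5 in sta1, against 741.2, 422.4, 537.6 and 502.3 in Col-LUC 1 to 4 and 411.0 in C24-LUC. The groups overlapped through Col-LUC 1 only, and the difference was 0.63 ± 0.24 (adjusted p = 0.173). It was -0.09 between sta1 1 and Col-LUC 1. Without Col-LUC 1 it was 0.77 with an adjusted p of 0.0478, where 8.81% of all tested probe sets passed. EXPA20 had 174.1 and 191.9 in sta1, above wild-type signals of 56.0 to 166.5, and a difference of 0.73 ± 0.41. That difference shrank to 0.07 for sta1 1 minus Col-LUC 1 and to 0.14 under the chip lot block. The block sets both sta1 arrays against Col-LUC 1 alone, since each array not known to share their lot was its own level. EXPA16 had 95.5 and 120.2 in sta1 and 64.5 to 114.8 in wild type, with a difference of 0.46 ± 0.29.

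The remaining alpha-expansins had differences between -0.54 and 0.19. EXPA15 had 554.7 and 674.7 in sta1, against 668.6 to 1186.6 in wild type, and a difference of -0.54 ± 0.26. EXPA4 had 1498.4 and 1580.0 in sta1 and 1212.6 to 1965.7 in wild type, a difference of -0.01 ± 0.22. EXPA7 and EXPA18 are expansins of root hairs. EXPA7 had 207.9 and 213.4 in sta1 and 96.4 to 291.0 in wild type (0.19 ± 0.39), and EXPA18 had 241.8 and 159.7 in sta1 and 156.0 to 397.4 in wild type (-0.31 ± 0.34). For both genes the sta1 values lay inside the wild-type range. Over the 8 tested alpha-expansins, 4 differences were positive and 4 negative, with a median of 0.09.

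The beta-expansins held the second gene with a large negative difference. EXPB3 (AT4G28250) had 757.7 and 619.1 in sta1, against 1209.7, 2943.1, 1601.4 and 2934.5 in Col-LUC 1 to 4 and 1213.6 in C24-LUC. The groups did not overlap, and the lowest wild-type arrays were Col-LUC 1 and C24-LUC. The difference was -1.41 ± 0.40, a ratio of 2.67, with an adjusted p of 0.0977. It was -0.68 between sta1 1 and Col-LUC 1. It passed only without Col-LUC 1, at -1.56 with an adjusted p of 0.0489, where 8.81% of all tested probe sets passed.

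EXPB1 (AT2G20750) had 138.1 and 142.3 in sta1, against 161.7, 388.8, 207.2 and 442.7 in Col-LUC 1 to 4 and 162.7 in C24-LUC. The sta1 signals were just under the lowest wild-type ones, and Col-LUC 2 and 4 lay far above. The difference was -0.82 ± 0.43 (adjusted p = 0.284), and -0.23 between sta1 1 and Col-LUC 1. EXLB1, an expansin-like gene, had 337.8 and 281.0 in sta1 against 349.4 to 489.4 in wild type, a difference of -0.41 ± 0.18. EXPB2 had 104.8 and 159.6 in sta1, above the 69.6 to 103.4 of wild type, a difference of 0.58 ± 0.27. EXLA1 had 344.7 and 215.4 in sta1 and 96.7 to 310.8 in wild type, a difference of 0.62 ± 0.45. EXLA2, the sixth tested gene of this group, had 62.3 and 76.7 in sta1 and 46.7 to 103.0 in wild type. Of these 6 genes, 4 had negative differences, and the median was -0.32.

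**Figure D2:**
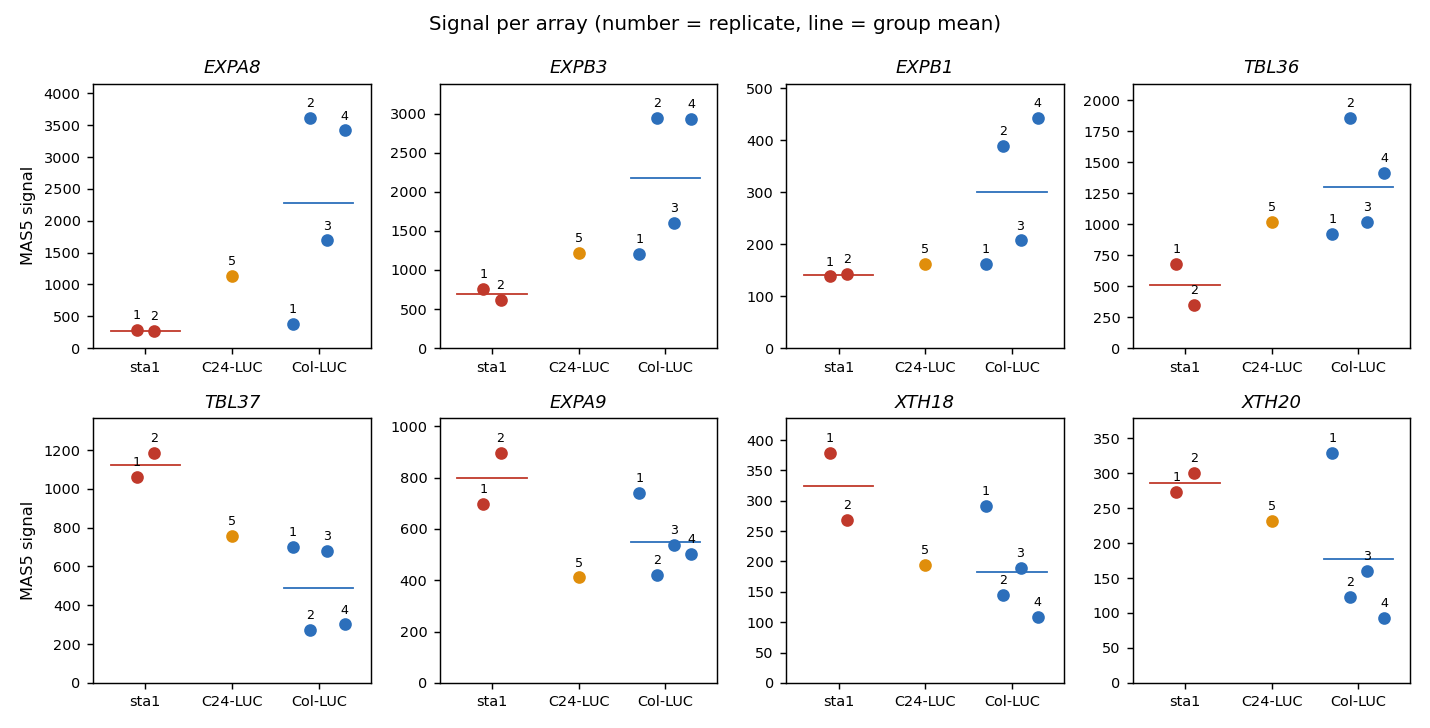
Each panel shows the MAS5 signal of 1 gene on every array, with sta1 at the left, C24-LUC in the middle and Col-LUC at the right. In EXPA8, EXPB3 and EXPB1 the array Col-LUC 1 lies at the low end of wild type near the 2 sta1 arrays, and in XTH20 it lies above them, at 329.0.

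The XTH genes gave no non-overlapping groups. XTH18 (AT4G30280) and XTH19 are neighbouring genes, and XTH19 and XTH20 are known for their part in joining cut stem tissue. XTH18 had 379.0 and 268.5 in sta1, against 291.1, 145.2, 189.1 and 108.0 in Col-LUC 1 to 4 and 194.4 in C24-LUC. The groups overlapped through Col-LUC 1 only. The difference was 0.86 ± 0.35 with an adjusted p of 0.191, and 0.38 between sta1 1 and Col-LUC 1. XTH20 had 272.9 and 300.3 in sta1, against 329.0, 123.5, 160.6 and 93.0 in Col-LUC 1 to 4 and 231.6 in C24-LUC. Here Col-LUC 1 was the highest of all arrays, and the difference of 0.75 ± 0.44 became -0.27 between sta1 1 and Col-LUC 1. XTH19 had 678.5 and 973.5 in sta1 and 420.5 to 1087.3 in wild type, a difference of 0.33 ± 0.33.

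XTH32 belongs to a branch of the family with xyloglucan-cutting activity. It had 875.2 and 970.4 in sta1, against 970.1, 1602.5, 1645.9 and 2429.5 in Col-LUC 1 to 4 and 1111.2 in C24-LUC. Col-LUC 1 stood level with sta1 2, and the difference was -0.68 ± 0.33 over all arrays and -0.15 between sta1 1 and Col-LUC 1. XTH16 had 439.8 and 453.7 in sta1 and 411.6 to 759.4 in wild type, a difference of -0.33 ± 0.25. XTH33 had 108.3 and 121.1 in sta1 and 45.0 to 334.8 in wild type, where the highest value was that of C24-LUC. Of the 6 tested XTH genes, 4 had positive differences, with a median of 0.20.

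The CSL genes had the smallest differences of the families, with a median size of 0.12. CSLC proteins make the glucan backbone of xyloglucan, and all 4 CSLC members were tested. CSLC5 (AT4G31590) had 419.1 and 506.7 in sta1, against 589.2, 603.6, 841.8 and 846.3 in Col-LUC 1 to 4 and 576.3 in C24-LUC. The groups did not overlap, and the difference was -0.56 ± 0.21 (adjusted p = 0.167) and -0.49 between sta1 1 and Col-LUC 1. In the other 3 CSLC genes the groups overlapped. CSLC04 had 1186.6 and 997.5 in sta1 and 971.4 to 1614.7 in wild type (-0.16 ± 0.24), CSLC6 had 390.7 and 415.4 in sta1 and 353.7 to 411.4 in wild type (0.08 ± 0.14), and CSLC12 had 102.6 and 73.6 in sta1 and 55.7 to 113.0 in wild type (0.07 ± 0.32).

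CSLA proteins make the backbone of mannans. CSLA03 (AT1G23480) had 146.1 and 193.7 in sta1, against 222.4, 334.3, 288.3 and 217.4 in Col-LUC 1 to 4 and 367.3 in C24-LUC. The groups did not overlap. The difference was -0.73 ± 0.25 with an adjusted p of 0.141, and -0.61 between sta1 1 and Col-LUC 1. CSLD2, needed for normal root hairs, had 687.6 and 648.9 in sta1 and 502.6 to 748.5 in wild type (0.08 ± 0.18). The 3 members described here as root-hair genes, EXPA7, EXPA18 and CSLD2, thus lay inside the wild-type range on both sta1 arrays.

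The TBL genes are described by the polymer that they are known to acetylate. This grouping was made after the values had been seen. TBL28, TBL30, TBL32, TBL34 and TBL35 acetylate xylan, a hemicellulose that is most abundant in secondary walls, and all 5 had negative differences, between -0.92 and -0.44, with a median of -0.56. Of all tested probe sets, 49.2% had negative differences. In 4 of the 5 both sta1 arrays lay below all wild-type arrays, against 15.7% of all tested probe sets. These genes are dim. TBL30 reached the filter signal of 100 on wild-type arrays only, and TBL28 on sta1 2 and TBL34 on sta1 1 were under 100. The median difference of the 5 genes was -0.41 between sta1 1 and Col-LUC 1.

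TBL35 (AT5G01620) had 170.8 and 154.9 in sta1, against 226.9, 242.1, 238.9 and 239.4 in Col-LUC 1 to 4 and 248.8 in C24-LUC. The 5 wild-type arrays lay close together, at 239 ± 7.94 (SD, n = 5), and both sta1 arrays were well below them. The difference was -0.56 ± 0.14 with an adjusted p of 0.0858, and -0.41 between sta1 1 and Col-LUC 1. TBL28 (AT2G40150) had 131.1 and 99.8 in sta1, against 205.1, 150.3, 241.7 and 203.7 in Col-LUC 1 to 4 and 308.2 in C24-LUC. The difference was -0.92 ± 0.28 with an adjusted p of 0.111. Its neighbour on the chromosome, TBL30, had 99.0 and 85.6 in sta1, against 107.8 to 143.9 in wild type (-0.44 ± 0.21).

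TBL34 had 85.7 and 102.8 in sta1, against 114.0 to 173.5 in wild type (-0.57 ± 0.24). TBL32 was the exception with overlap, since sta1 1 at 150.1 lay above Col-LUC 4 at 145.6, while sta1 2 had 120.6 and the other wild-type arrays 154.5 to 265.5. Its probe set can also bind transcripts of related sequence, as its name on the array shows. The sign stayed negative for all 5 genes in every alternative run. Their median was -0.48 with chip lot as a block, which again rests on Col-LUC 1 as the only wild-type array.

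**Figure D3:**
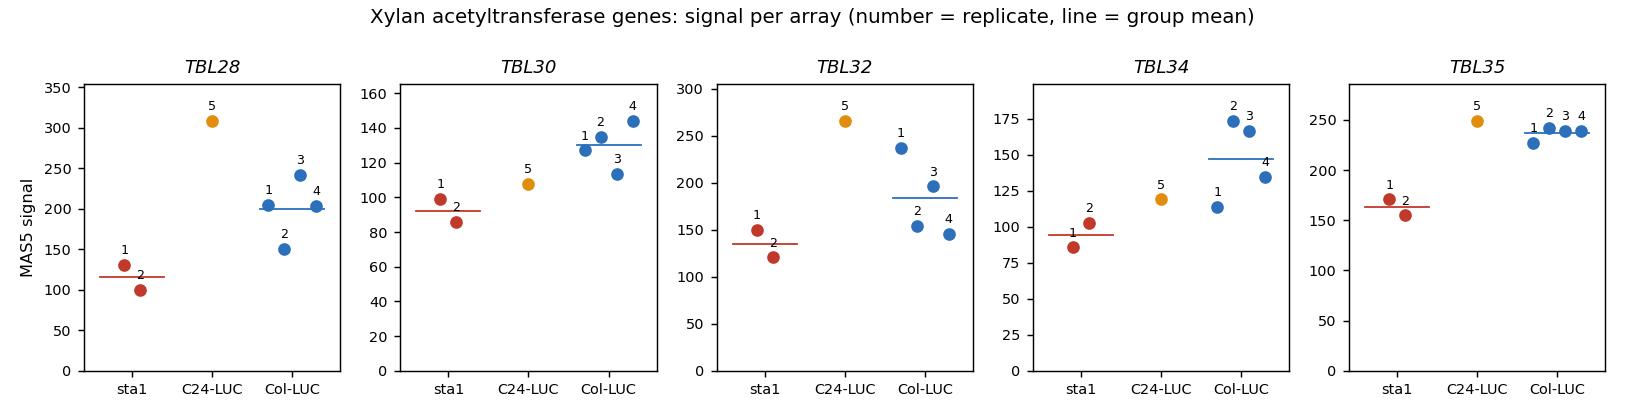
Each panel shows the MAS5 signal of 1 gene for xylan acetylation on every array, with sta1 at the left, C24-LUC in the middle and Col-LUC at the right. In TBL35 the 5 wild-type arrays lie between 226.9 and 248.8 and both sta1 arrays lie at 170.8 or less.

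Genes for mannan acetylation had differences of both signs. TBL25 had 931.9 and 1071.8 in sta1 and 1070.7 to 1422.6 in wild type (-0.27 ± 0.16). TBL26 had 394.6 and 352.5 in sta1, against 363.1, 165.8, 130.9 and 273.4 in Col-LUC 1 to 4 and 240.5 in C24-LUC (0.76 ± 0.36), and its difference was 0.12 between sta1 1 and Col-LUC 1. TBL23, described with the strains below, had 282.8 and 257.9 in sta1, within the 261.3 to 321.1 of Col-LUC or just under it.

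A pair of TBL genes with no polymer assigned here had the largest differences of the family, in opposite directions. TBL36 (AT3G54260) had 677.1 and 346.9 in sta1, against 924.7, 1856.0, 1018.9 and 1413.4 in Col-LUC 1 to 4 and 1016.7 in C24-LUC. The groups did not overlap, although the 2 sta1 arrays differed from each other. The difference was -1.31 ± 0.34, a ratio of 2.48, with an adjusted p of 0.0855, the smallest of all members. It was -0.45 between sta1 1 and Col-LUC 1. Without Col-LUC 1 it was -1.41 with an adjusted p of 0.0487, where 8.81% of all tested probe sets passed. Without sta1 2 it was -0.83.

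TBL37 (AT2G34070) had 1063.2 and 1185.2 in sta1, against 702.1, 271.0, 678.4 and 300.9 in Col-LUC 1 to 4 and 756.8 in C24-LUC. The groups did not overlap, and of the wild-type arrays Col-LUC 2 and 4 were much lower than the other 3. The difference was 1.18 ± 0.44, a ratio of 2.27, with an adjusted p of 0.162. It was 0.60 between sta1 1 and Col-LUC 1.

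The remaining tested TBL genes had differences between -0.53 and 0.24. TBL41 had 109.2 and 86.5 in sta1, below the 111.1 to 174.1 of wild type. TBL16 had 357.1 and 365.5 in sta1, above the 303.7 to 349.2 of wild type, a difference of 0.18 ± 0.14. TBL39 had 493.1 and 392.2 in sta1 and 258.6 to 465.1 in wild type (0.24 ± 0.24). TBL45 had 642.3 and 776.1 in sta1 and 369.0 to 1363.3 in wild type, a wide range against a difference of -0.22 ± 0.46. TBL18 and TBL38 also overlapped between the groups.

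**Figure D4:**
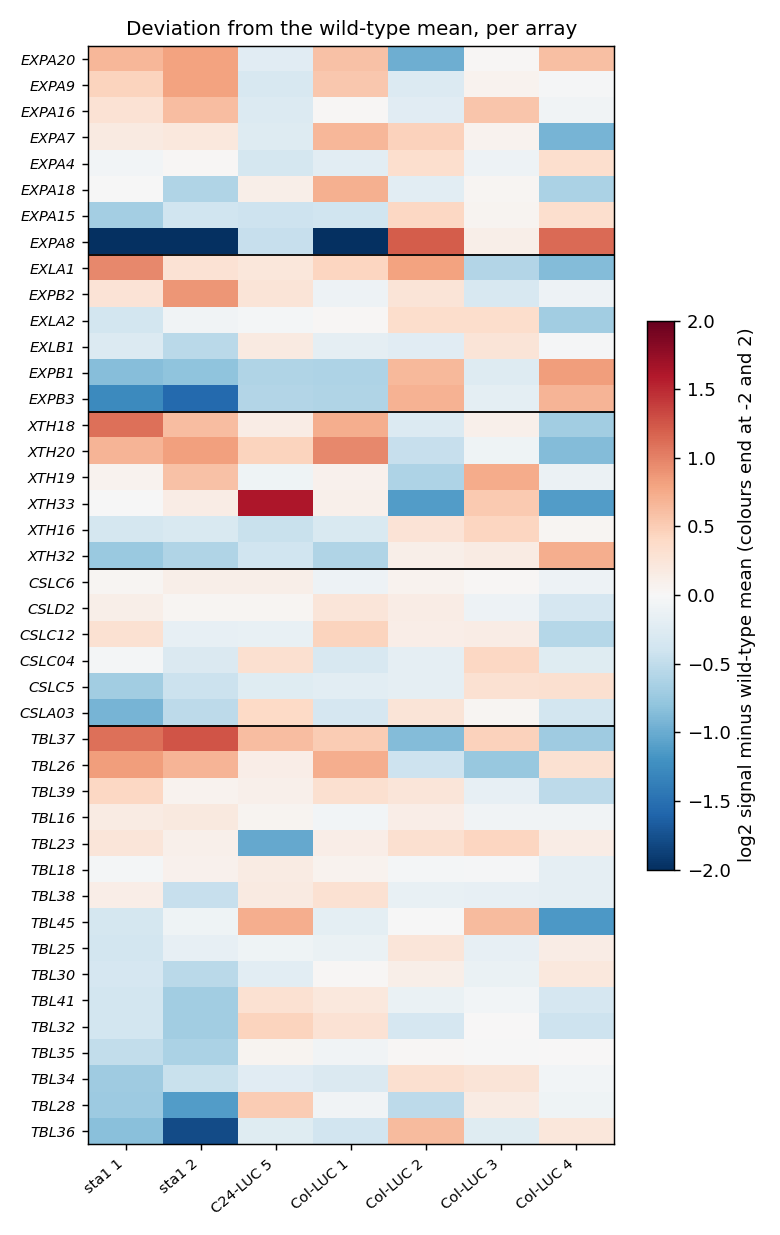
Each row is a tested wall gene and each column an array, and colour shows the log2 signal minus the mean of the 5 wild-type arrays. EXPA8 is far below that mean on both sta1 arrays and on Col-LUC 1 and above it on Col-LUC 2 and 4, whereas the CSLC6 and TBL18 rows are nearly white.

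The 7 arrays ran in 1 order for several members of different families. In EXPA8, EXPB3 and TBL36 the signals ranked Col-LUC 2, Col-LUC 4, Col-LUC 3, C24-LUC, Col-LUC 1, sta1 1 and sta1 2 from high to low. The order was taken from EXPA8, so its own match is given. These are 3 of 42 tested members, EXPA8 included, and 55 of the 15673 tested probe sets (0.351%) had the same order. The reverse order was found in 0 of the tested members and in 97 of all tested probe sets. EXPB1 followed the order of EXPA8 except that Col-LUC 4 exceeded Col-LUC 2 and sta1 2 exceeded sta1 1. The order was not particular to the members. The shoot marker LHCB4.1 had the order of EXPA8, and PSAN had it except that Col-LUC 4 exceeded Col-LUC 2. The shoot markers RCA and PSAE-1 had other orders. GH9C2 and GH9B7, endoglucanase genes described below, had the order of EXPB1. The order was looked for after the values had been seen, and its relation to lot or session was not tested.

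By family, the median differences in sta1 were 0.09 for EXPA, -0.32 for the other expansins, 0.20 for XTH, -0.04 for CSL and -0.24 for TBL. Each family held differences of both signs. Both sta1 arrays lay below all wild-type arrays in 6 of 16 TBL genes, 2 of 6 CSL genes, 3 of 6 of the EXPB, EXLA and EXLB genes, 1 of 8 EXPA genes and 0 of 6 XTH genes, against 15.7% of all tested probe sets. These counts were not tested against each other.

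Other wall genes were taken from name lists for pectin, arabinogalactan and structural proteins, xylan, cellulose, xyloglucan side chains, callose, nucleotide sugars and lignin. They gave 25 genes, of which 13 were tested and 0 passed in sta1 against wild type. Their median difference was -0.37, with 9 negative and 4 positive. Most were GH9 endoglucanases, enzymes that cut glucan chains, with 7 of 15 tested. GH9C2 had 1283.1 and 1365.5 in sta1, against 1739.3 to 3591.2 in wild type (-0.97 ± 0.28, adjusted p = 0.103). The groups did not overlap. The difference was -0.44 between sta1 1 and Col-LUC 1 and -0.39 with chip lot as a block, which sets both sta1 arrays against Col-LUC 1 alone. GH9C2 passed only without Col-LUC 1 (-1.11, adjusted p = 0.0325), where 8.81% of all tested probe sets passed.

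GH9B13 and GH9B7 were chosen for mention after their values were seen. GH9B13 had 1419.8 and 466.7 in sta1, against 1097.4 to 1843.8 in wild type (-0.86 ± 0.38, adjusted p = 0.218). The low value was that of sta1 2 alone. GH9B7 had 1297.1 and 1443.3 in sta1, below the 1508.9 to 2468.1 of wild type (-0.54 ± 0.20, adjusted p = 0.167), and its difference was -0.22 between sta1 1 and Col-LUC 1.

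GH9B8, another endoglucanase, passed against Col-LUC but not against all wild-type arrays. It had 212.1 and 161.2 in sta1, 187.3 in C24-LUC and 381.2, 615.4, 596.9 and 600.4 in Col-LUC 1 to 4. C24-LUC thus lay between the sta1 arrays, below all Col-LUC arrays, and C24-LUC minus Col-LUC was -1.52 ± 0.31 (adjusted p = 0.0748). Against Col-LUC alone, in a fit of 3 groups, GH9B8 fell by 1.54 ± 0.24 in sta1 (adjusted p = 0.0413), where 0.644% of all tested probe sets passed as lower. Against all wild-type arrays its difference was -1.24 ± 0.45 with an adjusted p of 0.159. The call against Col-LUC was lost with no filter (adjusted p = 0.116), where 0.18% of all probe sets passed. It was lost with no intensity trend (adjusted p = 0.0526), where 0.715% passed. Without Col-LUC 2, 3 or 4, or with the replicate block, 0 of all tested probe sets passed. The loss of the call there is therefore not particular to GH9B8. Other alternatives left 1 array in a group, so only the difference is given. It was -1.74 without sta1 1, -1.34 without sta1 2, and -1.04 with chip lot as a block or with arrays of the same calendar year. Between sta1 1 and Col-LUC 1 the difference was -0.85.

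Genes of the other lists had differences between -0.50 and 0.05. USP, an enzyme that makes nucleotide sugars, had 603.2 and 593.4 in sta1, against 729.0 to 907.6 in wild type (-0.37 ± 0.14). IRX15-L, of xylan synthesis, had 130.8 and 102.3 in sta1 and 123.9 to 206.0 in wild type (-0.50 ± 0.25). GAUT15, named with the pectin synthesis genes, had a difference of -0.46 ± 0.29. The lignin genes HCT and CCR2 had differences of 0.05 ± 0.14 and 0.01 ± 0.34.

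Set against Col-LUC alone, 0 of 42 members passed, where 1.26% of all tested probe sets passed (0.619% higher and 0.644% lower in sta1). At an unadjusted p under 0.05 there were 14 members (33.3%), against 24.9% of all. This fit shares its sta1 and Col-LUC arrays with the one above. EXPB3 had a difference of -1.56 ± 0.38 (adjusted p = 0.0818), TBL36 of -1.37 ± 0.35 (adjusted p = 0.0909), TBL35 of -0.54 ± 0.15 (adjusted p = 0.0953), EXPA8 of -2.61 ± 0.84 (adjusted p = 0.127) and TBL37 of 1.34 ± 0.43 (adjusted p = 0.124). Without Col-LUC 1 the number of members that passed was 10 against Col-LUC and 4 against all wild type, and the share of all probe sets that passed was 17.8% and 8.81%.

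The second question was whether the wild-type strains differ in these genes. With 1 array of C24-LUC, its spread was taken from the other groups, and the strain, the array and its chip lot cannot be told apart. Of the 42 members, 0 were higher and 1 lower in C24-LUC, against 0.204% and 1.16% of all tested probe sets. The 1 member was TBL23 (AT4G11090), which acetylates mannan. It had 117.2 in C24-LUC, against 261.3, 300.2, 321.1 and 265.1 in Col-LUC 1 to 4. C24-LUC lay below every other array, sta1 included, and the signal of TBL23 was lower by 1.29 ± 0.20 on the log2 scale, a ratio of 2.44 (adjusted p = 0.0329). Whether the probes of TBL23 or GH9B8 match the C24 sequence as well as the Col sequence was not tested. The call was lost without Col-LUC 2, 3 or 4 and without either sta1 array, with adjusted p-values up to 0.110, while the difference stayed between -1.33 and -1.23.

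XTH33, a membrane-anchored member of its family, had the largest positive difference between the strains. It had 334.8 in C24-LUC, against 116.9, 45.0, 156.0 and 48.7 in Col-LUC 1 to 4. C24-LUC was the highest of all arrays, but Col-LUC itself was spread widely, and the difference of 2.03 ± 0.65 did not pass (adjusted p = 0.253). TBL45 had 1363.3 in C24-LUC and 369.0 to 1280.4 in Col-LUC (0.91 ± 0.56). TBL37 had 756.8 in C24-LUC and 271.0 to 702.1 in Col-LUC (0.77 ± 0.55).

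The xylan genes had differences of both signs between the strains. TBL28 (0.64 ± 0.30) and TBL32 (0.56 ± 0.32) were among the 5 largest positive differences of C24-LUC, whereas TBL30 and TBL34 had -0.26 and -0.29. On the negative side after TBL23 came EXPB1 (-0.76 ± 0.53), EXPB3 (-0.74 ± 0.49), EXPA8 (-0.57 ± 1.09) and XTH16 (-0.56 ± 0.28). XTH16 had 411.6 in C24-LUC and signals of 456.0 to 759.4 on the Col-LUC arrays. Of the 8 tested alpha-expansins, 7 had negative differences in C24-LUC, with a median of -0.37, where 45.8% of all tested probe sets were negative, and 4 lay below all Col-LUC arrays, against 21.0% of all tested probe sets. None of the 8 passed.

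**Figure D5:**
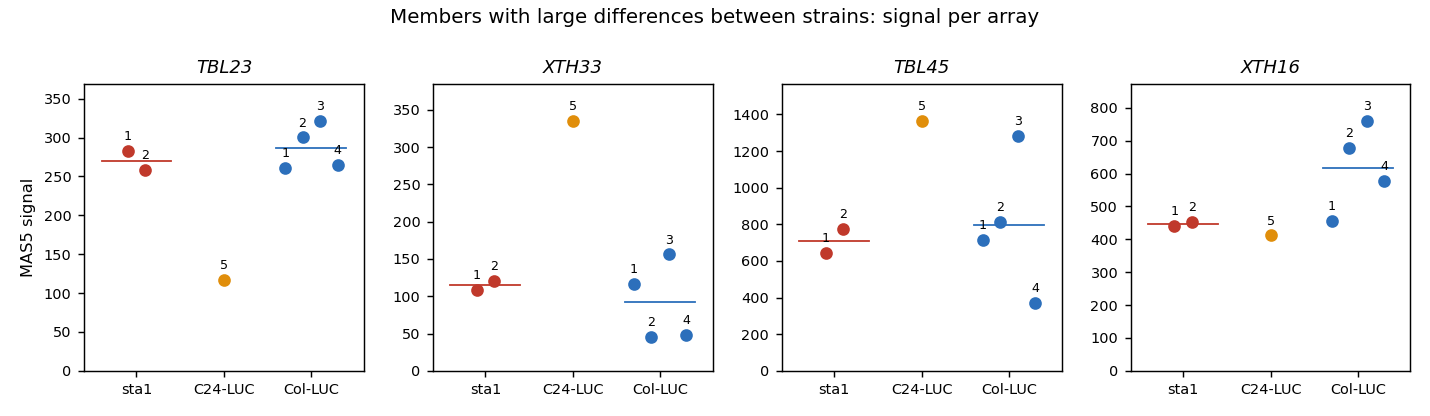
Each panel shows the MAS5 signal of 1 gene on every array, with sta1 at the left, C24-LUC in the middle and Col-LUC at the right. TBL23 is at 117.2 in C24-LUC and at 257.9 or more on all other arrays, and XTH33 is at 334.8 in C24-LUC and at 156.0 or less on all others.

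The 14 members that were not tested were CSLA01, EXLA3, EXPA21, EXPA24, EXPB5, TBL15, TBL19, TBL20, TBL21, TBL42, TBL43, XTH21, XTH26 and XTH29. Their signals lay between 1.8 and 113.3, and 74 of the 98 values were under 50, the floor used for low signals. Only TBL43 in C24-LUC, at 113.3, and XTH26 in Col-LUC 1, at 113.1, reached 100. Signals this low do not order the arrays, so no difference is given for these genes.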

How the data were processed

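Values were the intensity signals deposited per probe set, which the authors computed with MAS5, per the submitters' processing notes, and scaled to a target of 500, per the labels. Its version is not stated in them. The other deposited files hold array settings in text (other), per the file headers, and gave chip lot, session and year, which were empty for Col-LUC 4. After 64 control probe sets were left out, 22746 remained. Every column belonged to 1 sample.

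A floor of 50 was applied before log2. Probe sets with a signal of 100 on at least 2 arrays were tested with limma 3.58.1 in R 4.3.3 (lmFit, eBayes with intensity trend), with Benjamini-Hochberg adjustment across the 15673 tested. SE is that of the fitted difference. For sta1 against wild type the fit held 2 and 5 arrays in 2 groups, and for the other comparisons 3 groups. The procedure was tested on simulated data. Precision is limited by the number of arrays. Any 2 arrays differed in at least 22686 probe sets, and each counted as 1 sample.

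All 56 members matched the RefSeq gene table of TAIR10.1 by gene identifier. Members, lists and tests were chosen with earlier results of these data known. Genes were named by rule: calls, the 3 largest differences of each sign per family, the 3 highest mean signals per family, the 5 largest strain differences of each sign and the 5 largest SDs among Col-LUC; the remaining xylan genes and a few further members were added after their values were seen. PRP39, PRP39-2 and FRA3 matched a list by name only and were left out, as their proteins do other work. Of the marker lists, xylem (15 genes), flower (6) and seed (7) had 0 probe sets with 1 gene and were not analysed here. Alternatives covered the floor, filter, normalization, variance trend, each array left out, chip lot, year, session, the replicate block and the wild-type arrays used.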

Additional observations from a re-analysis of the deposited data

Results flagged for a closer look

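In 3 of the 42 tested members, 1 Col-LUC array stood far from the other 3 by Dixon's criterion, and chance would give about 2.1 of 42 groups. CSLC04 had a signal of 1614.7 in Col-LUC 3, against 971.4 to 1076.6 in the other Col-LUC arrays. TBL16 had 349.2 in Col-LUC 2, against 303.7 to 308.6 in the others. TBL38 had 313.4 in Col-LUC 1, against 222.3 to 228.0 in the others.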

How the results depend on the processing

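The precision is limited by 2 sta1 arrays and 1 C24-LUC array. Of the members, 0 passed in sta1 against wild type in all alternatives that gave a test except 1, and leaving out 1 array at a time gave 0 to 4, with the 4 (EXPA8, EXPA9, EXPB3 and TBL36) without Col-LUC 1. Against Col-LUC that range was 0 to 10, with the 10 without Col-LUC 1. In C24-LUC against Col-LUC it was 0 to 1, and with no filter it was 2, TBL23 and TBL42, which is too dim to be tested otherwise. TBL42 had 52.8 in C24-LUC and under 50 on all other arrays, which the floor made equal. Its call thus comes from the floor. Over all tested probe sets, the count in sta1 against wild type was 205, and it was 1381 without Col-LUC 1 and 0 when either sta1 array was left out, when chip lot was a block (2293 at an unadjusted p under 0.05), with the replicate block (2198) or when only arrays of the same calendar year were used. The chip lot block compared sta1 with Col-LUC 1 alone, and the replicate block with Col-LUC 1 and Col-LUC 2 alone. Both left hardly any freedom to estimate the spread, so their counts of 0 say little about the genes. The replicate numbers were not used to pair the samples in the main fit. Only 2 pairs exist, and their deviations correlated at 0.192 and -0.007 over probe sets, which cannot settle whether they are paired. In the pair of replicate 1, both arrays shared chip lot and session. The replicate block left 0 members past the threshold.

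The median of EXPA was -0.31 with a signal of 100 required on all arrays, -0.22 with the replicate block and -0.19 within the shared session, all opposite in sign to 0.09. With a signal of 100 on all arrays the median was -0.82 for EXPB, EXLA and EXLB and -0.07 for TBL. The XTH median was 0.54 with the replicate block, and the chip lot block gave a CSL median of -0.26. The TBL median was -0.14 with no filter or with all members floored and -0.33 within the same year. Leaving out 1 array at a time gave a CSL median of -0.23 to 0.0012 and a TBL median of -0.34 to -0.21.

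Direction changed in 45 of 786 alternatives for 42 named genes in sta1 against wild type, in 12 genes, and in 0 of 128 in C24-LUC against Col-LUC. Within the shared session 10 changed, to -0.09 for EXPA9, -0.02 for XTH19, -0.27 for XTH20, -0.11 for XTH33, 0.29 for CSLC04, -0.14 for CSLC12, -0.12 for CSLD2, 0.16 for EXPA4, 0.24 for GAUT15 and -0.28 for CCR2. Under the chip lot block it became 0.16 for CSLC04, -0.38 for CSLC12, -0.16 for CSLD2, 0.20 for EXPA4, 0.0822 for GAUT15, -0.0808 for TBL39, -0.20 for XTH20, -0.0297 for XTH33 and -0.25 for CCR2. With the replicate block it became 0.0893 for CSLC04, -0.22 for CSLC12, -0.12 for CSLD2, -0.0428 for TBL39 and -0.29 for CCR2. Within the same year it became -0.0803 for CSLC12, -0.0666 for CSLD2, 0.27 for EXPA4, 0.0442 for XTH16, -0.79 for XTH33 and -0.25 for CCR2. With a floor of 100 it became -0.0167 for CSLC12, -0.33 for XTH33 and -0.15 for CCR2, and with quantile normalization -0.0083 for CCR2. With 1 array left out, the lowest and highest were -0.17 and 0.31 for CSLC12, -0.0065 and 0.14 for CSLD2, -0.10 and 0.0714 for EXPA4 and -0.19 and 0.10 for CCR2, and -0.21 and 0.48 for XTH33, the lowest without Col-LUC 2 or 4. The causes were not tested.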
